A study of Mus musculus with 6 samples.

Results

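Notch signalling genes of the embryonic mouse retina were followed through 5 cell types and 3 genotypes. The 10 genes were taken from a list of names: the receptors Notch1 and Notch3, the ligands Dll1, Dll3, Dll4 and Jag1, and the Hes and Hey transcription factors Hes1, Hes5, Hes6 and Hey1. They are 10 of the 27998 genes counted, and all 10 were in the matrix. The list did not use measured values, but it was drawn up with earlier results of these data known.

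The study profiled dissociated retinal cells of mouse embryos at embryonic day 14 with 10x Genomics 3' v2 chemistry, a droplet-based single-cell RNA-seq in which each captured transcript carries a unique molecular identifier (UMI) and is counted once. Atoh7 encodes a transcription factor that retinal precursors need to become ganglion cells, and Bax is a protein that carries out programmed cell death. There were 3 groups with 2 libraries each. Bax het Atoh7 null retinas lacked Atoh7 and kept 1 working copy of Bax, Bax null retinas lacked Bax and were wild type for Atoh7, and Bax null Atoh7 null retinas lacked both. No group had both genes intact, so every level below comes from a retina mutant for at least 1 of them. The labels do not say how many embryos went into a library, nor that the libraries of a group came from separate animals, so p-values measure only the spread between these libraries, which may be technical.

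In Notch signalling a ligand of the Delta or Jagged family on one cell binds a Notch receptor on its neighbour, the receptor is cut by the gamma-secretase complex, and its freed intracellular part joins the DNA-binding protein RBPJ to switch on target genes such as the Hes and Hey repressors. In the developing retina these repressors hold proneural genes down and keep progenitors dividing, while cells that start to differentiate raise Delta ligands and so signal back to their neighbours. Hes6 stands apart in this family because it counteracts Hes1 and marks cells entering differentiation. Dll3 differs from the other Delta proteins in acting mainly inside the cell that makes it.

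The DNA just upstream of Hes5 and Dll1, an effector and a ligand, is shown because it holds the letters through which the pathway is known to act. RBPJ binds the core TGGGAA, and proneural bHLH factors bind E-boxes of the form CANNTG. In the RefSeq promoters of build GRCm38.p6, 250 bases before each start site were searched on both strands. Of the 10 genes, 8 were matched there, with 10 promoters, and Hes1 and Hey1 had no entry. Among the matched genes, Hes5 held 2 RBPJ cores and the others held none, where 21.6% of 32817 promoters of the same length held at least 1. The first promoter lies at chr4:154960673-154960922 on the plus strand and has its RBPJ cores in capitals, starting 226 and 82 bases before the start site, the former on the opposite strand. The second, from the more upstream of the Dll1 start sites listed, lies at chr17:15376933-15377182 on the minus strand and has its 3 E-boxes in capitals. The other Dll1 promoter held 1 E-box, those of Dll4, Notch1 and Notch3 held none, and the remaining ones held 1 to 3. An E-box stood in 66.2% of all promoters. The motifs were searched separately and may overlap, and a match describes the sequence only.
Hes5: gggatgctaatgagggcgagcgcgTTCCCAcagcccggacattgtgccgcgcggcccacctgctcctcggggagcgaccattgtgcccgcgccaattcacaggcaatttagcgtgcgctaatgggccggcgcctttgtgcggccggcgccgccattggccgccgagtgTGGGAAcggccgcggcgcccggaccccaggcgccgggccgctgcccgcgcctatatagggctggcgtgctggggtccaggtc
Dll1: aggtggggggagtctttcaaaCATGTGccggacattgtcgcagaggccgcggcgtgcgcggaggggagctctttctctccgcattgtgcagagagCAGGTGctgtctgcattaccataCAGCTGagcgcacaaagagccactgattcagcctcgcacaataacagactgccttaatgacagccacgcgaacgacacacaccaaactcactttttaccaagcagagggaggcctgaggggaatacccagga

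In build GRCm38 the receptors lie at chr2:26457903-26516663 (Notch1) and chr17:32120820-32166852 (Notch3), both on the minus strand. The ligand genes lie at chr17:15367354-15376872 (Dll1, minus), chr7:28293553-28302238 (Dll3, minus), chr2:119325784-119335962 (Dll4, plus) and chr2:137081456-137116644 (Jag1, minus). The effector genes lie at chr16:30064384-30067796 (Hes1, plus), chr4:154960923-154962371 (Hes5, plus), chr1:91411483-91414038 (Hes6, minus) and chr3:8663359-8667256 (Hey1, minus). The positions are those of the GENCODE M21 annotation, from the first to the last base of each gene, introns included.

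The libraries held 67050 cells and between 22463515 and 66594431 UMIs each, and they did not stand on an equal footing. The Bax null libraries were the deepest, with a median of 5660.5 and 6804 UMIs per cell against 1634 to 2632 in the others. They also had 3.80% and 3.90% mitochondrial UMIs against 1.06% to 1.15% elsewhere, and haemoglobin transcripts at 468 and 399 CPM (UMIs per 1e6 UMIs of the cell type) in their progenitors against 8.97 to 197 CPM in the progenitors of the other 4 libraries. These properties separate the Bax null group from both Atoh7 null groups, so a difference from Bax null cannot be told apart from them. Atoh7 had no UMI in any Atoh7 null library and 5.96 and 6.88 CPM in Bax null. Bax, which checks the other label, was 143.5 and 107.7 CPM where 1 copy was kept and 17.1 and 15 CPM in Bax null, but 47.7 and 11 CPM in Bax null Atoh7 null, so that replicate 1 under that last label lay above the other Bax null libraries. The pair of libraries labelled Bax null Atoh7 null shared 2596 cell barcodes, 22% of the smaller one, where every other pair shared 126 to 223. Of the shared barcodes, 89.5% had the same cell type in both libraries, against 34.3% to 46.0% in the other pairs, so these replicates cannot be taken as fully independent. Among the changes of the first comparison below, Hes6 in neurogenic cells was lost without the shared barcodes in replicate 1, and Hey1 in horizontal-labelled cells without them in both libraries.

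The authors' cell types were retinal progenitors, neurogenic cells (progenitors committed to differentiate), ganglion cells, cones and cells labelled horizontal. Each label led the other labels in its own marker list, except the neurogenic one. Neurogenic markers were 1976 to 5020 CPM in neurogenic cells, 3299 to 4544 CPM in cones and 642.9 to 2429 CPM in ganglion cells. The lowest library of the neurogenic label thus lay below every cone value. The horizontal label also had the highest amacrine markers, at 1959 to 3428 CPM, and endothelial markers at 256 to 387 CPM against at most 92.7 CPM elsewhere. Pericyte-type (mural) markers were at most 38.4 CPM, and microglial, pigment epithelial, lens and glial markers at most 14.5 CPM, in any cell type. Ciliary margin markers were highest in progenitors, at 129.9 to 207.7 CPM. The authors' clustering may have used these genes, so levels between cell types are given as description. Levels between cell types are plain CPM within a library. Levels between genotypes are CPM after TMM scaling (normalised CPM), since the deeper libraries differed in composition.

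Across cell types the members fell into distinct patterns. Notch1 was highest in neurogenic cells in 6 of 6 libraries, between 125.4 and 319.5 CPM, and 2.60 to 2.89 times its level in the progenitors of the same library. Horizontal-labelled cells, progenitors and cones followed at levels that overlapped (47.7 to 120.1 CPM), and ganglion cells were lowest at 21 to 52.7 CPM. Notch3 took the opposite course. It was highest in progenitors, at 18.1 to 23.6 CPM, and neurogenic cells held 0.264 to 0.547 of that level, and in ganglion cells, cones and horizontal-labelled cells it stayed between 0 and 5.78 CPM.

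Each of the 4 ligands was higher in neurogenic cells than in progenitors, and they differed in the later cell types. Dll1 stood at 34.8 to 108.8 CPM in neurogenic cells, 5.81 to 7.73 times the progenitor level, and lower in cones (7.72 to 35.9 CPM) and horizontal-labelled cells (15.9 to 38.4 CPM), which did not separate from each other. In ganglion cells Dll1 was 5.71 to 11.1 CPM, below progenitors in 4 of 6 libraries. Dll4, a ligand best known from blood vessels, had the steepest step: 0.385 to 1.60 CPM in progenitors and 29.7 to 82.4 CPM in neurogenic cells, a ratio of 40.7 to 115.8. In cones Dll4 was 8.50 to 20.5 CPM and in horizontal-labelled cells, which carried the highest endothelial marker sum, only 0.769 to 5.96 CPM. Dll3 was 11.3 to 16.6 times higher in neurogenic cells than in progenitors, and was highest in cones, at 155.0 to 237.4 CPM, in 6 of 6 libraries. Jag1 was highest in ganglion cells, at 4.96 to 26.3 CPM, followed by neurogenic cells at 4.18 to 16.3 CPM, and in cones it was below progenitors in 4 of 6 libraries.

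Among the effectors, Hes1 belonged to progenitors and Hes6 to neurogenic cells. Hes1 in neurogenic cells was 0.252 to 0.503 of its progenitor level in the same library. Between horizontal-labelled and neurogenic cells the order of Hes1 differed by genotype. Neurogenic cells were higher in 2 of 6 libraries, both of them Bax null (694 and 842 CPM, against 439 and 506 CPM). In the Atoh7 null libraries horizontal-labelled cells were slightly higher, at 84.7 to 111.2 CPM against 74.3 to 107.8 CPM. Hes6 was 1421 to 2948 CPM in neurogenic cells, 6.74 to 7.85 times its progenitor level. Hes5, a target of the pathway, was also highest in neurogenic cells, at 706.0 to 1133 CPM, with 2.08 to 2.59 times the progenitor level. Hey1 in neurogenic cells was 0.912 to 2.69 times its progenitor level, and its cell types overlapped throughout, between 11.1 and 58.5 CPM. Counts come from transcript ends and are not divided by length, so levels are compared within a gene only.

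**Figure D1:**
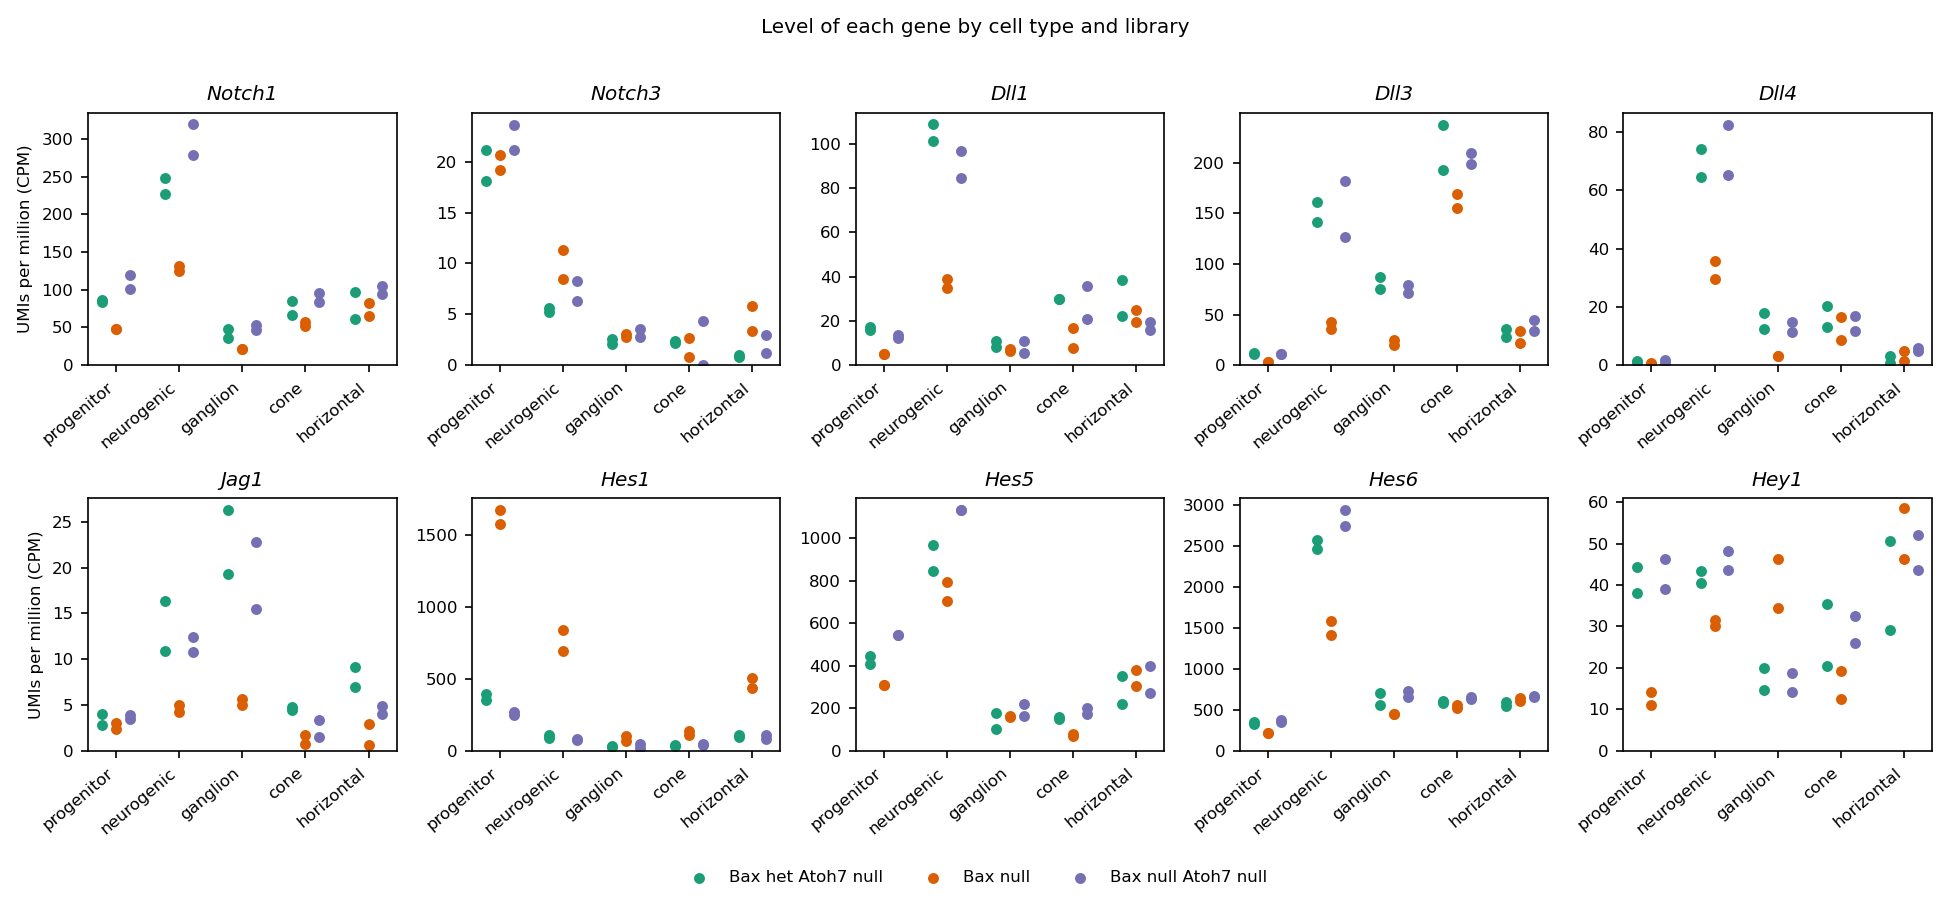
Level of each of the 10 genes in CPM (y axis, linear and starting at 0), by cell type (x axis) and genotype (colour), with 1 point per library. Hes1 in progenitors separates Bax null (1576 and 1673 CPM) from the 4 Atoh7 null libraries (249.0 to 393.5 CPM), and Dll4 and Hes6 peak in neurogenic cells of every library.

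The first genotype comparison set Bax null Atoh7 null against Bax null, which differ in Atoh7. Counts were summed per library and cell type and tested with edgeR's quasi-likelihood test, and a gene with a Benjamini-Hochberg adjusted p under 0.05 over all genes of that cell type is described as changed. Of 50 combinations of a gene and a cell type, 44 had enough counts, and 26 changed, 15 of them higher and 11 lower. Over all genes and cell types 43.7% changed, so many changes were found throughout the transcriptome and the share among the 10 genes, 59.1%, is read against that background. Bax het Atoh7 null against Bax null, which differ in both genes, gave 14 higher and 12 lower of 44, where 43.0% of all genes changed. Both comparisons rest on the same Bax null libraries and are not independent.

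Hes1, the repressor that keeps progenitors undifferentiated, was lower without Atoh7 in all 5 cell types. In progenitors its normalised CPM was 219 and 220 in Bax null Atoh7 null, then 355 and 318 in Bax het Atoh7 null, and 2057 and 2204 in Bax null. In neurogenic cells it was 73.1 and 61.8, then 97.2 and 80.8, against 892 and 1094. Both Bax null libraries lay far above the other 4, with no overlap in any cell type. The log2 fold change of Bax null Atoh7 null against Bax null was -3.28 (SE 0.12) in progenitors, with an edgeR adjusted p of 7.91e-08, and -3.88 (SE 0.15) in neurogenic cells, with an edgeR adjusted p of 3.96e-09. In progenitors this placed Hes1 134th from the lowest of 13396 genes tested, and in neurogenic cells 76th of 11670. Against Bax null, Bax het Atoh7 null gave -2.66 in progenitors and -3.48 in neurogenic cells. Scaling by UMI totals alone, which moved the median of all genes by 0.64 in progenitors, left Hes1 at -2.64 there.

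In the other cell types Hes1 was also lower. In horizontal-labelled cells its normalised CPM was 100.1 and 72.5 in Bax null Atoh7 null against 554 and 644 in Bax null (log2 fold change -2.78). In cones it was 42.1 and 32.1 against 139.2 and 178.1 (-2.06), and in ganglion cells 39.0 and 17.9 against 132.1 and 92.2 (-1.97). Thinned to 1000 UMIs per cell, Hes1 was seen in 71.0% and 71.6% of Bax null progenitors and in 22.2% to 31.2% of progenitors of the other libraries. Before thinning these shares were 95.5% and 95.3% against 37.6% to 61.5%. In ganglion cells, which are not known for Hes1, the thinned share was 4.77% and 3.66% in Bax null and 1.02% to 3.82% in the others, taken here as background. The progenitor shares lie far above it, and the thinned cone shares, 3.36% and 5.08% in Bax null and 2.33% to 2.69% in the others, lie near it. Haemoglobin transcripts, a measure of RNA from other cells, were 490 and 427 CPM in Bax null ganglion cells and 4.39 to 197 CPM in those of the other libraries, and their part in the Hes1 difference of ganglion cells and cones was not tested.

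Hey1, the other repressor with a large change, moved in opposite directions by cell type. In progenitors it was 34.3 and 37.5 normalised CPM in Bax null Atoh7 null, with 34.4 and 40.2 in Bax het Atoh7 null, against 18.6 and 14.7 in Bax null. The Bax null libraries were the lowest, with log2 fold changes of 1.11 (SE 0.12, edgeR adjusted p 9.84e-05) and 1.16. In ganglion cells Hey1 was 16.2 and 11.7, then 13.4 and 18.4, against 59.4 and 45.0, so that Bax null was the highest there. The log2 fold changes were -1.89 and -1.67. In neurogenic cells the 6 libraries ran together, from 36.9 to 40.6. In horizontal-labelled cells Hey1 was lower in both comparisons (-0.66 and -0.87), and both calls were lost when scaling by UMI totals alone.

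The ganglion cells of the groups were not the same clusters. Of the 20 ganglion clusters, 9 were made of at least 80% Bax null cells, and these held 64.3% of the Bax null ganglion cells. The same held for 8 of 84 progenitor clusters, with 36.9% of Bax null progenitors, for 1 of 27 neurogenic clusters, with 8.24%, and for no cone or horizontal cluster. No cluster reached 80% from either Atoh7 null group, so leaving such clusters out removed mainly Bax null cells. Clusters with few Bax null cells stayed in, such as ganglion cluster 53 with 3.02%. The groups were therefore not matched for clusters by this step. Without these clusters, a choice made after the values were seen, Hey1 in ganglion cells was 17.0 and 13.6 plain CPM in Bax null, inside the range of 10.8 to 18.1 CPM of the other 4 libraries. Its log2 fold change moved to -0.81 (edgeR adjusted p 0.0191) in the first comparison and to -0.54 (edgeR adjusted p 0.104) in the second. Hey1 in progenitors and Hes1 in progenitors and neurogenic cells held, at 1.46, -3.23 and -3.64 for Bax null Atoh7 null against Bax null. Hes1 in ganglion cells was then 92.5 and 42.7 plain CPM in Bax null and 20.7 to 45.1 CPM in the others, which overlapped, with a log2 fold change of -1.65.

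**Figure D2:**
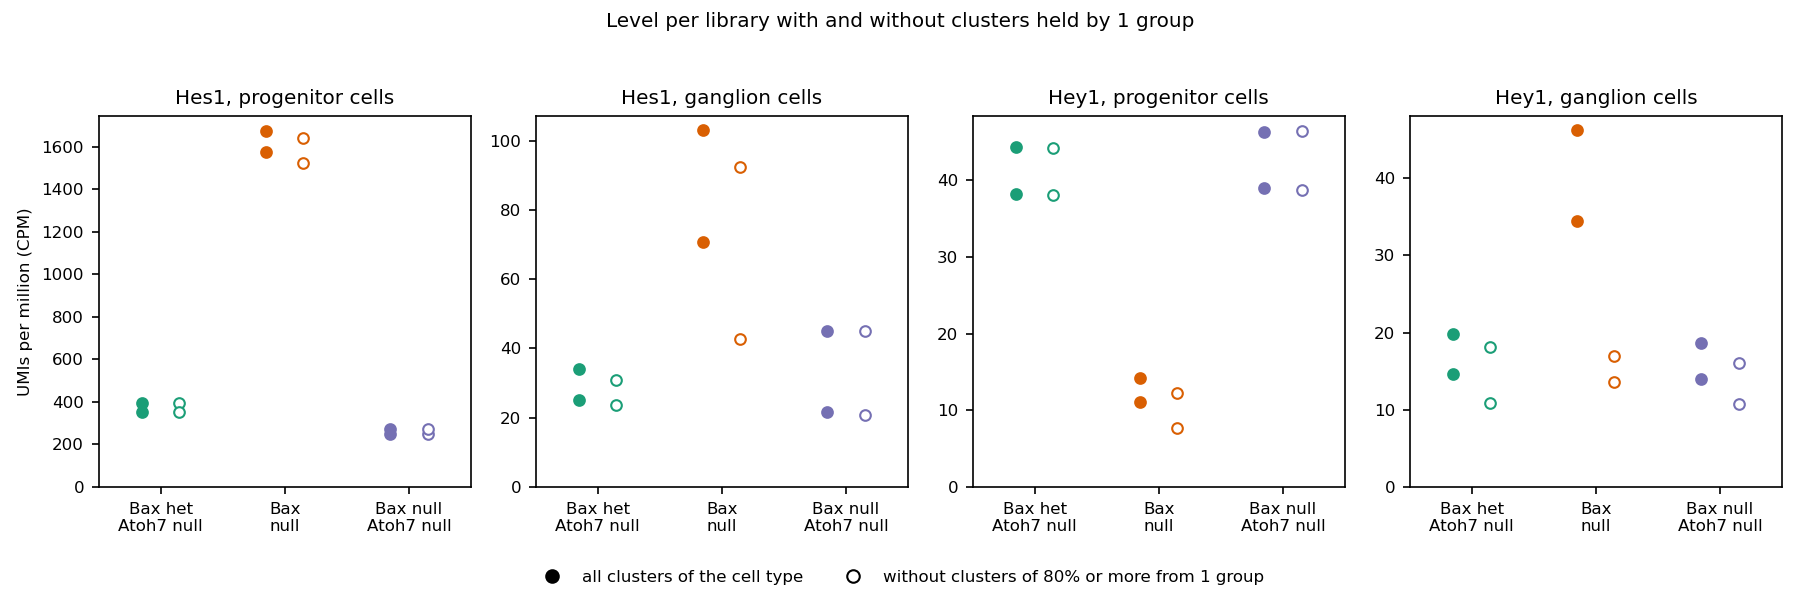
Hes1 and Hey1 in progenitors and ganglion cells, in CPM (y axis from 0), by genotype (x axis), with 1 point per library. Filled points use all clusters and open points leave out clusters with at least 80% of cells from 1 group: the plain CPM of Hey1 in ganglion cells then overlap (17.0 and 13.6 CPM in Bax null), though the TMM-scaled log2 fold change of -0.81 was still called in the first comparison, while Hes1 in progenitors stays apart.

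Hes5, the target with RBPJ cores in the promoter printed above, did not follow Hes1. In progenitors it was 478 and 439 normalised CPM in Bax null Atoh7 null, then 403 and 368 in Bax het Atoh7 null, and 401 and 409 in Bax null, with no change called (log2 fold changes 0.18 and -0.07). In neurogenic cells it was 1001 and 944, then 873 and 771, against 1022 and 917, again with none called. In plain CPM, Hes5 in progenitors was 306.9 to 310.2 in Bax null and 405.8 to 542.5 in the other groups. In neurogenic cells it was 706.0 to 794.7 and 845.3 to 1133. The absence of a call was therefore read on the TMM scale only. In cones a change was called. Hes5 there was 178.1 and 144.5 in Bax null Atoh7 null, with 147.9 and 140.1 in Bax het Atoh7 null, against 100 and 87.4 in Bax null, with log2 fold changes of 0.79 (edgeR adjusted p 0.000555) and 0.61, the second lost without Bax null replicate 2 and with DESeq2. In horizontal-labelled cells it was lower (-0.54 and -0.71), which was lost when scaling by UMI totals alone, as was the -0.73 in ganglion cells of Bax het Atoh7 null. That ganglion value turned to 2.08 (edgeR adjusted p 2.03e-06) without the clusters held by 1 group, where Hes5 was 21.5 and 13.6 plain CPM in Bax null and 84.1 to 182.5 CPM in the other libraries. The ganglion clusters left out, all mainly Bax null, included clusters 44 and 92 with Hes5 at 1337 and 550.1 CPM. The rest of those left out had 5.94 to 108.5 CPM.

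Hes6, the gene of cells entering differentiation, moved little after TMM scaling. In neurogenic cells it was 2427 and 2455 normalised CPM in Bax null Atoh7 null, with 2318 and 2251 in Bax het Atoh7 null, against 2044 and 1846 in Bax null, the lowest group. The log2 fold change of 0.33 in Bax null Atoh7 null had an edgeR adjusted p of 0.0448, and it was lost in 10 of 18 alternatives. With UMI totals alone it was larger, at 0.92 (edgeR adjusted p 2.61e-05), where the median of all neurogenic genes was itself 0.59. In horizontal-labelled cells Hes6 was lower (-0.43 and -0.56). With UMI totals alone the first turned to 0.11 and the second shrank to -0.12, neither called. Both calls were also lost without Bax null replicate 2.

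**Figure D3:**
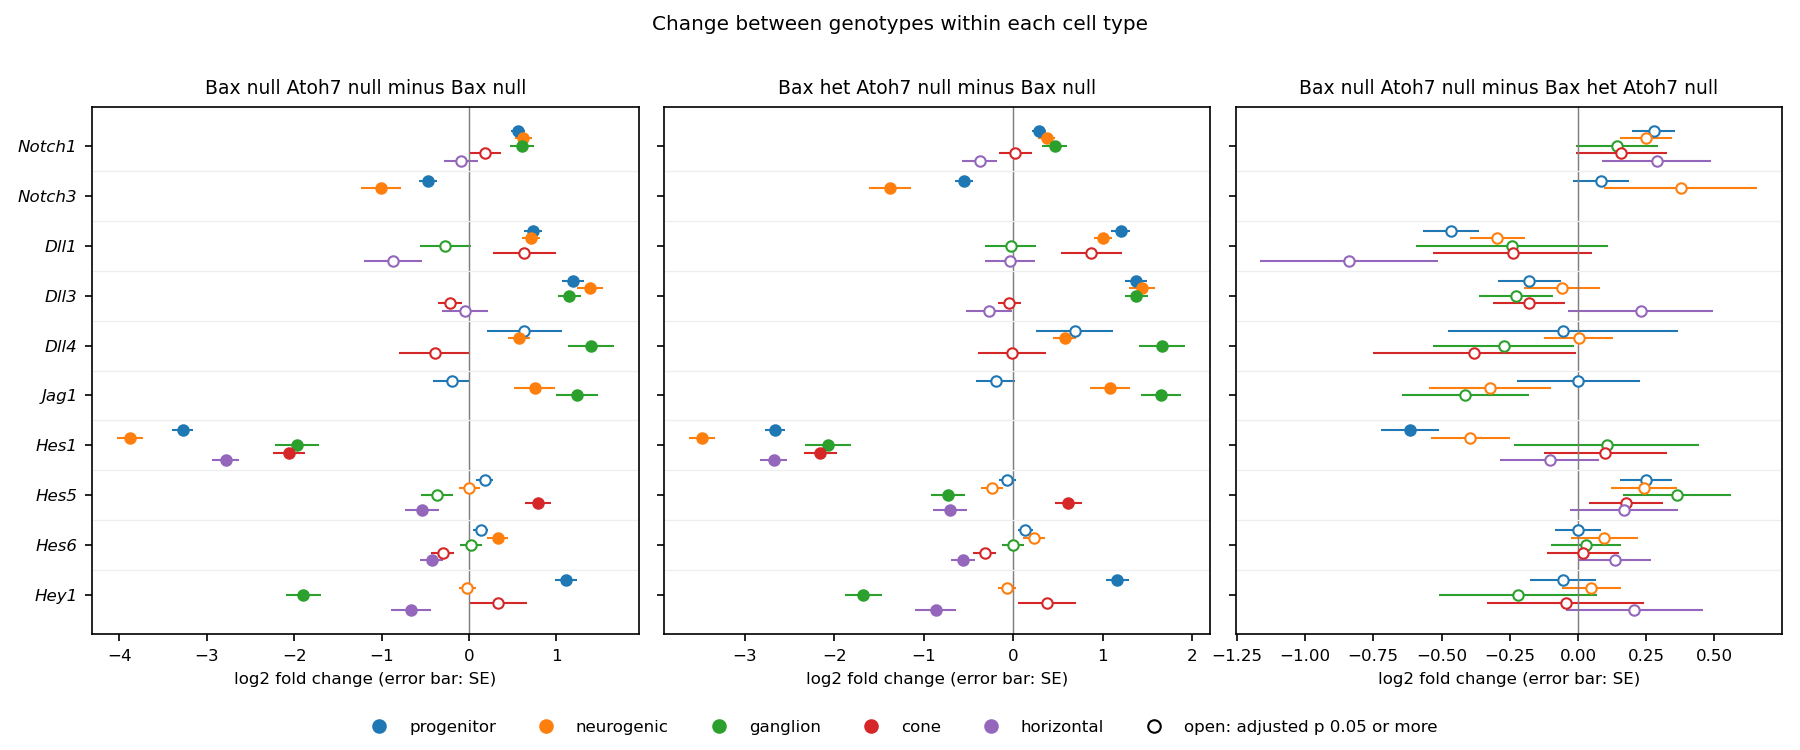
Log2 fold change (x axis, error bars 1 SE) of each gene (y axis) in the 3 genotype comparisons (panels, each with its own x range), coloured by cell type and filled where the edgeR adjusted p was under 0.05. Hes1 lies between -3.88 and -1.97 in all 5 cell types of the left panel, while 1 point is filled in the right panel.

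Of the ligands, Dll3 and Dll1 were higher without Atoh7 in progenitors and neurogenic cells. Dll3 in progenitors was 9.52 and 8.88 normalised CPM in Bax null Atoh7 null, with 10.7 and 10.2 in Bax het Atoh7 null, against 3.96 and 4.12 in Bax null, a log2 fold change of 1.19 (SE 0.12) and 1.37. In neurogenic cells it was 112.3 and 151.8, then 127.2 and 146.8, against 54.9 and 46.1 (1.39 and 1.44), and in ganglion cells 68.7 and 59.6, then 69.0 and 80.2, against 31.6 and 26.4 (1.15 and 1.38). In these cell types no Atoh7 null library overlapped Bax null. In cones, where Dll3 was highest, the libraries ran from 176.7 to 222.5 and no change was called.

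Dll1, the main Delta ligand of retinal precursors, was 10.9 and 11 normalised CPM in progenitors of Bax null Atoh7 null, then 15.8 and 14.5 in Bax het Atoh7 null, and 6.56 and 6.63 in Bax null. The libraries sorted by group, with log2 fold changes of 0.73 (SE 0.11) and 1.2 (SE 0.10) against Bax null. In neurogenic cells Dll1 was 74.7 and 80.7, then 91.3 and 99.3, against 50 and 45.1 (0.71 and 1.0). In ganglion cells, cones and horizontal-labelled cells no Dll1 change was called.

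Dll4 and Jag1 were higher in neurogenic and ganglion cells without Atoh7. Dll4 in neurogenic cells was 57.6 and 68.6 normalised CPM, then 66.9 and 58.8, against 46.0 and 38.6 (0.58 and 0.57). That call was lost without Bax null replicate 2 or without the 5% of cells with the most UMIs. In ganglion cells Dll4 was 10.0 and 12.4, then 16.3 and 11.5, against 4.16 and 4.31 (1.4 and 1.67), and the first value fell to 0.50 (edgeR adjusted p 0.173) without the clusters held by 1 group. Jag1 in ganglion cells was 13.5 and 19.0, then 17.7 and 24.3, against 6.36 and 7.31 (1.24 and 1.65). In neurogenic cells it was 9.51 and 10.4, then 9.77 and 14.9, against 6.35 and 5.43 (0.76 and 1.08), and the first of these calls was lost without replicate 2 of Bax null and also without replicate 2 of Bax null Atoh7 null. That call was lost too with DESeq2 and with all sums thinned to the smallest library. In progenitors Jag1 stayed between 2.58 and 3.96 in all libraries, with none called.

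The receptors divided. Notch1 in progenitors was 88.8 and 97.3 normalised CPM in Bax null Atoh7 null, then 77.6 and 75.8 in Bax het Atoh7 null, and 62.3 and 63.5 in Bax null. The 3 groups did not overlap, and the log2 fold changes were 0.56 (SE 0.079) and 0.29 (SE 0.079). In neurogenic cells Notch1 changed by 0.62 and 0.37 and in ganglion cells by 0.61 and 0.46, and in cones and horizontal-labelled cells no change was called. The 3 calls of Bax het Atoh7 null were each lost without its replicate 1 and without Bax null replicate 2, and those in progenitors and ganglion cells also without Bax null replicate 1. Notch3 was lower: in progenitors 18.7 and 19.1, then 19.2 and 16.4, against 25.1 and 27.2 (-0.47 and -0.55). With UMI totals alone these became 0.16 and -0.02, neither called, on a scale where the median of all progenitor genes was itself 0.64 in the first comparison. In neurogenic cells Notch3 was 7.31 and 5.28, then 5.05 and 4.80, against 10.9 and 14.7 (-1.01 and -1.38), and the first of these was lost with UMI totals alone.

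By cell type, Bax null Atoh7 null against Bax null changed 6 of the 10 genes in progenitors, where 53.9% of all genes changed, 8 of 10 in neurogenic cells (47.3%), 6 of 9 in ganglion cells (52.7%), 2 of 8 in cones (28.1%) and 4 of 7 in horizontal-labelled cells (29.2%). All 4 in horizontal-labelled cells were lower. For Bax het Atoh7 null against Bax null the counts were 6 (53.1%), 7 (47.1%), 7 (50%), 2 (27.5%) and 4 (30.2%). A further test took each cell type's difference from the progenitors of the same library, and 21 of these differences passed in the first comparison (7.87% of all genes), 20 in the second (7.96%) and 0 of 40 in the comparison for Bax (0.0432%), where 5 had an unadjusted p under 0.05. Aside from that test, 17 of the 26 changes of the first comparison and 15 of the 26 of the second held in every alternative run.

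The comparison that differs in Bax, Bax null Atoh7 null against Bax het Atoh7 null, changed 1 of 44 combinations, where 1.86% of all genes changed. It was Hes1 in progenitors, at 219 and 220 normalised CPM against 355 and 318, a log2 fold change of -0.62 (SE 0.11) with an edgeR adjusted p of 0.0232. The call was lost when any single library of the Bax het Atoh7 null or Bax null groups was left out, with UMI totals alone, and without the barcodes shared by the Bax null Atoh7 null libraries. Dll1 in progenitors was next, at -0.47 (SE 0.10), with an edgeR adjusted p of 0.0588. By cell type, 1 of 10 genes changed in progenitors (2.01% of all genes), 0 of 10 in neurogenic cells (1.77%), 0 of 9 in ganglion cells (2.34%), 0 of 8 in cones (1.46%) and 0 of 7 in horizontal-labelled cells (1.61%). At an unadjusted p under 0.05 edgeR gave 4, 3, 0, 0 and 1 genes in that order of cell types, and DESeq2 gave 1 after adjustment, also in progenitors. The Bax null Atoh7 null libraries were shallower, with medians of 1940 and 1634 UMIs per cell against 2632 and 2206, so the groups differed in depth here too, and its part in the Hes1 difference was not tested. Bax itself was 47.7 CPM in Bax null Atoh7 null replicate 1 and 11 CPM in replicate 2, against 143.5 and 107.7 CPM in Bax het Atoh7 null. Replicate 1 may thus not fully stand for loss of Bax, and the part of this in the low number of calls was not tested.

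Other genes of the pathway were read from a list of 56, all of them in the matrix. Bax null Atoh7 null against Bax null changed 36 of the 50 tested in progenitors (72.0%, against 53.9% of all genes), 23 higher and 13 lower, and their median log2 fold change was 0.29 against 0.01 for all genes. In neurogenic cells 15 of 48 were higher and 9 lower, with a median of 0.07, and this share of 50% was near the 47.3% of all genes. Against Bax null, Bax het Atoh7 null gave 24 higher and 11 lower in progenitors (70.0%, against 53.1% of all genes) and 16 and 10 in neurogenic cells (54.2%, against 47.1%). In the comparison that differs in Bax, the count was 1 of 50 in progenitors (2.01% of all genes), Ncstn of the gamma-secretase complex at -0.68 (edgeR adjusted p 0.0232). DESeq2 called 3 there, and the Ncstn call was lost in 8 of 17 alternatives, including without either Bax het Atoh7 null library (edgeR adjusted p up to 0.218). In ganglion cells 2 of 41 were lower (2.34% of all genes), Rbpj at -0.66 and Tle4, a corepressor, at -0.48, and DESeq2 called 1. The count was 0 of 48 in neurogenic cells (1.77% of all genes), where edgeR gave 6 at an unadjusted p under 0.05 and DESeq2 gave 0 after adjustment.

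Several subunits of gamma-secretase were among the named genes. Aph1a, a subunit of the complex, was 3.45 and 3.29 normalised CPM in progenitors of Bax null Atoh7 null, then 2.99 and 2.79 in Bax het Atoh7 null against 35.5 and 34.3 in Bax null (log2 fold changes -3.37 and -3.59). Its relative Aph1c went the other way from a very low level, at 0.941 and 0.980 against 0.338 and 0.237 (1.72). Psenen, another subunit, was 68.0 and 55.4 in neurogenic cells of Bax null Atoh7 null against 216.9 and 235.2 (-1.87). Reads of similar genes can be split differently by the counting, and that was not tested.

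Further named genes were modulators of ligands and receptors. Neurl1b, which promotes the uptake of ligands, was lower in progenitors (-1.86 and -1.65) and neurogenic cells (-2.13 and -2.81), at very low levels. In progenitors it was at most 0.723 normalised CPM in the Atoh7 null libraries against 1.69 and 1.56 in Bax null. In neurogenic cells it was 0.155 to 0.731 against 2.72 and 3.13, so these fold changes rest on few UMIs. Dlk1, a non-canonical ligand, was 0.627 and 0.922 normalised CPM in progenitors of Bax null Atoh7 null against 3.69 and 4.87 (-2.50), and Dner, a neuronal relative of the ligands, was 2.43 and 3.86 against 0.744 and 0.913 (1.88). Dtx4, a Deltex ubiquitin ligase, was 19.5 and 22.1 in neurogenic cells of Bax het Atoh7 null against 66.2 and 79.0 (-1.80). Kat2b, an acetyltransferase, and Poglut1, which glycosylates Notch, were higher in neurogenic cells by 1.33 and 0.97 in Bax null Atoh7 null. Hes2, a further Hes gene, was 34.5 and 36.6 in neurogenic cells of Bax null Atoh7 null, then 33.4 and 31.6 in Bax het Atoh7 null against 4.54 and 4.79 in Bax null (2.92 and 2.79). In progenitors Hes2 had no UMI in Bax null and at most 0.705 normalised CPM elsewhere.

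Within single cells, Dll1 was set against its partners in each library, after thinning to 1000 UMIs per cell. Cells below that depth, 5.53% and 10.7% of the Bax null Atoh7 null libraries, 1.62% and 1.82% of Bax null and none of Bax het Atoh7 null, were left out. In progenitors with a Dll1 UMI (25 to 121 cells per library), Hes6 was seen in 51.7% to 62.9% of cells, against 15.5% to 25.5% of those without. The difference was 38.0 ± 6.73 percentage points (SD, n = 6 libraries), positive in 6 of 6. Hes5 was also seen more often, by 16.5 ± 5.86 points in 6 of 6 libraries, while Hes1 was lower by a mean of -9.91 ± 4.24 points in 6 of 6. Hes1 was seen in 56.0% and 61.5% of the Dll1-positive progenitors of Bax null against 71.0% and 71.6% of the Dll1-negative ones, and in 10.1% to 24.4% against 22.3% to 31.4% in the other libraries. Of the 9 partners in progenitors, Hey1 was also lower in 6 of 6 libraries (-1.60 points), but on only 0 to 4 Dll1-positive cells with Hey1 per library. Both Bax null libraries had 0 such cells, and 1.62% and 1.19% of their negative cells had Hey1. A negative sign was thus nearly given there by the low numbers. Notch1 (4.41 points) and Dll3 (2.31 points) were higher in 5 of 6. Dll4 was seen in 0 Dll1-positive progenitors and in 0.0188% to 0.167% of the negative ones, too few cells to compare.

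The exact two-sided sign-flip permutation test over 6 libraries gave a p of 0.0313 for Hes6, Hes5, Hes1, Hey1 and Dll4 in progenitors, the smallest it can give. After Benjamini-Hochberg adjustment over 18 relations this was 0.0938, so none passed 0.05. With this smallest p, a relation could pass only if most of the 18 reached it. For Dll4 the sign could not be positive, as 0 Dll1-positive progenitors had it, and Hey1 rests on few such cells. In neurogenic cells Hes6 was again higher in Dll1-positive cells, by 8.60 ± 5.58 points in 6 of 6 libraries (exact p 0.0313, adjusted 0.0938), and Hes1 was lower in 5 of 6 (-4.16 points). Taken within the authors' clusters, the progenitor differences were 32.9 points for Hes6, 15.4 for Hes5 and -9.13 for Hes1, and Hey1 was lower in 5 of 6 libraries (-1.03 points). In neurogenic cells they shrank to 4.61 points for Hes6, positive in 6 of 6 libraries, and -1.47 points for Hes1, negative in 4 of 6. The Dll1-positive cells were few in Bax null, at 25 and 26 progenitors. Shares in cells without a Dll1 UMI include cells whose Dll1 was missed at this depth.

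**Figure D4:**
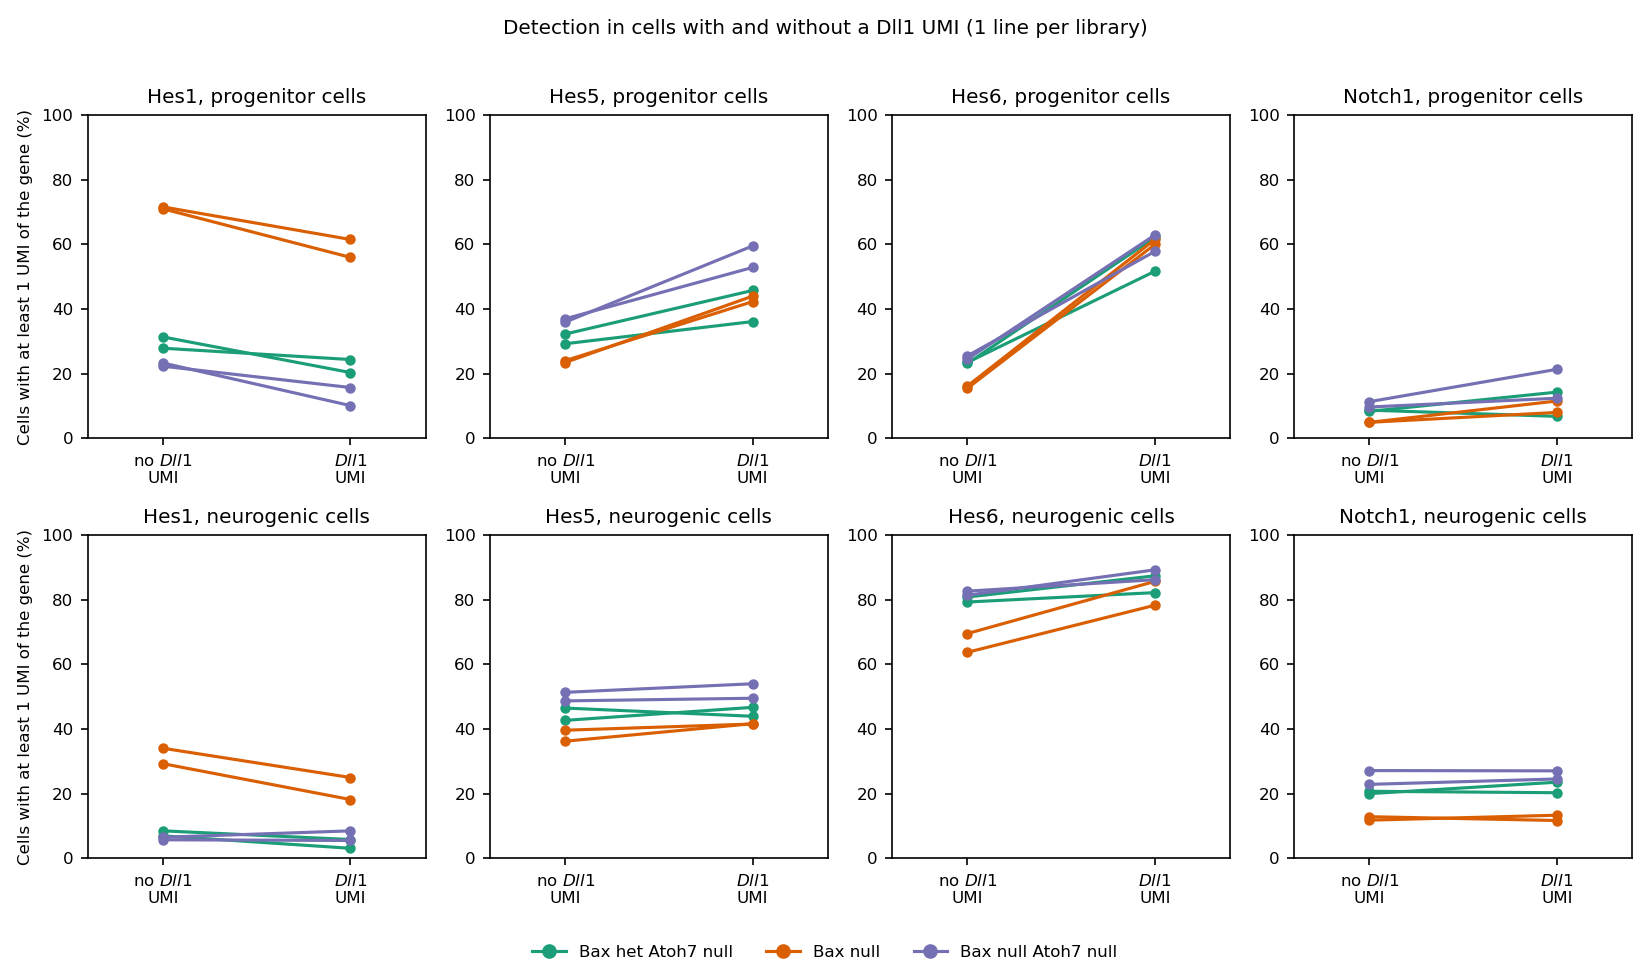
Percent of cells with at least 1 UMI of Hes1, Hes5, Hes6 or Notch1 (y axis) among cells without and with a Dll1 UMI (x axis), with cells thinned to 1000 UMIs and 1 line per library coloured by genotype. In progenitors (upper row) all 6 Hes6 and Hes5 lines slope up and all 6 Hes1 lines slope down, with a mean difference of 38.0 points for Hes6 there and 8.60 points in neurogenic cells (lower row).

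The neurogenic clusters spread along Hes1. Among the 7 clusters with the least Hes1 (18.9 to 46.9 CPM), Hes6 was 2316 to 5151 CPM, Dll4 was 76.1 to 232.9 CPM and Dll3 was 103.1 to 342.1 CPM. Among the 7 with the most Hes1 (486.6 to 1416 CPM), Hes6 was 392.1 to 2000 CPM, Dll4 was 1.54 to 18.7 CPM and Dll3 was 6.07 to 58.6 CPM. The ranges of Hes6, Dll4 and Dll3 did not overlap between these ends. Bax null cells made up 0.499% to 28.0% of the former clusters and 19.5% to 97.5% of the latter, so the order was also taken within each genotype. In Bax null, over 20 clusters with at least 50 cells, the median Dll4 was 112.9 CPM in the 5 clusters with the least Hes1 and 4.43 CPM in the 5 with the most, and Hes6 was 2706 and 563 CPM. In Bax null Atoh7 null, over 25 clusters, Dll4 was 140.0 and 5.04 CPM and Hes6 4072 and 1464 CPM, and in Bax het Atoh7 null, over 24 clusters, Dll4 was 143.8 and 9.77 CPM and Hes6 3596 and 1398 CPM. Dll1 differed less between the ends, with medians of 118.9 and 104.1 CPM in Bax het Atoh7 null, then 87.7 and 83.2 CPM in Bax null Atoh7 null, and 61.5 and 17.3 CPM in Bax null. The clustering may have used the same genes, so the order is a description.

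**Figure D5:**
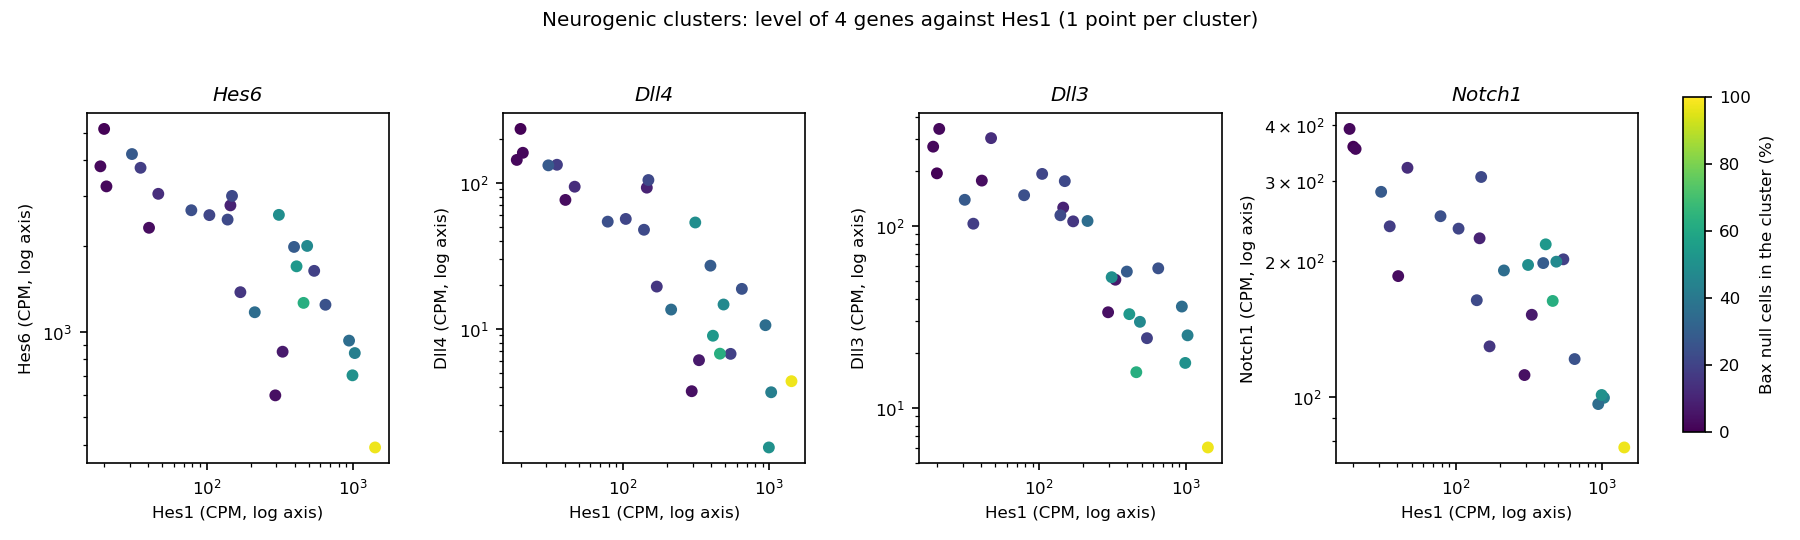
Level of Hes6, Dll4, Dll3 and Notch1 (y axes, log scale) against Hes1 (x axis, log scale) in the 27 neurogenic clusters, in CPM, coloured by the percent of Bax null cells in the cluster. The 7 clusters with the least Hes1 (18.9 to 46.9 CPM) have Dll4 at 76.1 to 232.9 CPM, above the 7 with the most Hes1 (1.54 to 18.7 CPM).

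Genes whose pattern over the 30 sums of a library and a cell type was most like each member were found by Pearson correlation of log2(CPM + 1), centred on each library, among 7204 genes with a mean over the 6 libraries of 20 CPM or more in at least 1 cell type. Hes1 was nearest to Plagl1 (r = 0.99) and Fgf15 (r = 0.98), Dll3 to Neurod1 (r = 0.98), Dll1 to Psip1 (r = 0.94), Dll4 to Sstr2 (r = 0.94), Notch1 to Cbx1 (r = 0.95), Notch3 to Egfem1 (r = 0.94), Hes5 to Hmgb1 (r = 0.96) and Hes6 to Rbpj (r = 0.96). Hey1 had no close partner, with Arl4a the nearest at r = 0.82, and Jag1, whose mean over the 6 libraries was at most 15.8 CPM (ganglion cells), was left out. The points share libraries and cell types, so the values describe likeness only.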

How the data were processed

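The deposited matrix holds UMI counts per gene and cell, not normalised, and the authors' cell table gives each cell's library, cluster and cell type. Per the submitters' processing notes, Cell Ranger 1.2.1 and the build mm10 were used, with no role given. The members, gene lists and cell type markers were chosen with earlier results of these data known. Cells of 2 other libraries (26078 cells, 28.0% of 93128) were used in no step, which left 67050. Counts of each gene were added up within each library and cell type. The 6 library sums of a cell type were fitted together with edgeR 4.0.16 (R 4.3.3, limma 3.58.1), after the filterByExpr filter and TMM scaling, with Benjamini-Hochberg adjustment over all genes of the cell type and a threshold of 0.05. The TMM factors ran from 0.76 to 0.80 in Bax null and from 1.07 to 1.24 elsewhere. Beside the members, the text names the 3 called pathway genes with the highest and the 3 with the lowest log2 fold change per comparison in progenitors and neurogenic cells, where groups did not overlap, and the most alike genes of each member. Outside that rule, it names the 2 pathway genes called in ganglion cells in the comparison that differs in Bax.

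On simulated counts, 200 of the better-counted genes were changed in the libraries with both genes null, against Bax null. The test recovered 46.3%, 83.6% and 100% of genes changed 1.5-, 2- and 4-fold in neurogenic cells (11501 genes). In progenitors (13199 genes) it recovered 67.2%, 91.0% and 100%. Of the unchanged genes, 12 of 11301 in neurogenic cells and 7 of 12999 in progenitors were called. The simulation gave all libraries the same composition and all genes the same spread. It changed far fewer genes than were called in the data, so these rates need not hold there. Cells were thinned to 1000 UMIs for shares of cells, and Wilson intervals at 95% cover counting error only. Progenitor sums held 14053912 to 38954120 UMIs, while cone and horizontal sums, at 826841 to 1491426 UMIs, are less precise. Doublets were not called, and leaving out the 5% of cells with the most UMIs in each library stands in for a caller. Gene positions are from GENCODE M21 (GRCm38) and promoters from RefSeq (GRCm38.p6). Alternatives were RLE size factors, UMI totals alone, DESeq2 1.42.0, no filter, a replicate block, 4 libraries only, thinning, each library left out, and cells left out by depth, shared barcodes or cluster. The genotype change of a single gene was followed through them only where the main run called it. Python 3.11.15 with numpy 2.4.6, scipy 1.17.1, pandas 2.3.3, statsmodels 0.14.6 and matplotlib 3.10.9 did the rest.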

Additional observations from a re-analysis of the deposited data

Results flagged for a closer look

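The difference between a cell type and the progenitors of the same library was compared between genotypes, which asks whether a genotype's effect differs by cell type. With edgeR's quasi-likelihood test and adjustment over all genes, 21 of these differences passed 0.05 for Bax null Atoh7 null against Bax null (7.87% of all genes did) and 20 where Bax het Atoh7 null was set against Bax null (7.96%). For Bax null Atoh7 null against Bax het Atoh7 null 0 passed, with 5 at an unadjusted p under 0.05, where 0.0432% of all genes passed. Each value is a cell type's log2 fold change minus that of progenitors.

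In Bax null Atoh7 null against Bax null, Hes1 differed from progenitors by 1.30 in cones, 1.34 in ganglion cells and 0.54 in horizontal-labelled cells, where it was less reduced, and by -0.56 in neurogenic cells. Hey1 gave -2.98 in ganglion cells, -1.73 in horizontal-labelled cells and -1.11 in neurogenic cells. Hes5 gave 0.68 in cones, -0.53 in ganglion cells, -0.68 in horizontal-labelled cells and -0.15 in neurogenic cells. Hes6 gave -0.36 in cones, -0.52 in horizontal-labelled cells and 0.21 in neurogenic cells. Among the ligands, Dll1 gave -0.98 in ganglion and -1.56 in horizontal-labelled cells, Dll3 gave -1.33 in cones and -1.18 in horizontal-labelled cells, and Jag1 gave 1.44 in ganglion and 0.98 in neurogenic cells. Notch1 gave -0.60 in horizontal-labelled cells.

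Where Bax het Atoh7 null was set against the same Bax null libraries, Hes1 gave 0.57 in cones, 0.61 in ganglion cells and -0.81 in neurogenic cells. Hey1 gave -2.85 in ganglion, -2.01 in horizontal-labelled and -1.23 in neurogenic cells. Hes5 gave 0.75 in cones, -0.67 in ganglion, -0.61 in horizontal-labelled and -0.16 in neurogenic cells, and Hes6 gave -0.39 in cones and -0.66 in horizontal-labelled cells. Dll1 gave -1.21 in ganglion and -1.18 in horizontal-labelled cells, Dll3 gave -1.35 in cones and -1.59 in horizontal-labelled cells, and Jag1 gave 1.81 in ganglion and 1.28 in neurogenic cells. Notch1 gave -0.63 in horizontal-labelled cells and Notch3 gave -0.81 in neurogenic cells. Haemoglobin transcripts and the clusters held by Bax null cells move with these groups, and their part in these values was not tested.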

How the results depend on the processing

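Over 18 alternatives, the combinations called numbered 21 to 30 where Bax null Atoh7 null, and 20 to 31 where Bax het Atoh7 null, was set against Bax null. Not every alternative tested the same 44 combinations. The within-library difference, with the lowest counts (21 and 20), covered 40 and counts differences from progenitors, not genotype changes. The run without the low-count filter could test more. UMI totals alone, shared barcodes left out and clusters of 80% or more from 1 group left out were chosen after seeing the data. Same-numbered libraries deviated together between the Atoh7 null groups (r of 0.287, 0.225 and 0.153 in progenitors, neurogenic and ganglion cells, under 0.1 in cones and horizontal-labelled cells) but not with Bax null (-0.0972 to 0.0517), so the numbers were not taken as pairs. With the replicate block the counts were 26, 26 and, for the comparison that differs in Bax, 1. That last count was 0 with UMI totals alone, without shared barcodes in replicate 1, without them in both libraries and in the within-library difference, 2 without the low-count filter, and 0 to 2 with each library left out. With UMI totals alone, Hes6 in horizontal-labelled cells turned to 0.11 and Notch3 in progenitors to 0.16 in Bax null Atoh7 null, as the median of all genes moved with that scaling (to 0.64 in progenitors). The within-library difference, which subtracts the progenitor change, turned sign for Dll1 (-0.010), Dll4 (-0.08) and Hes2 (-2.87) in neurogenic cells, Dll3 in ganglion cells (-0.0099), and Hes1 in cones (1.30), ganglion (1.34) and horizontal-labelled cells (0.54) in Bax null Atoh7 null. In Bax het Atoh7 null it did so for Dll1 (-0.18), Dll4 (-0.10), Poglut1 (-0.11) and Hes2 (-3.07) in neurogenic cells and Hes1 in cones (0.57), ganglion (0.61) and horizontal-labelled cells (0.026). Such a turn does not reverse the genotype change within the cell type. In Bax null Atoh7 null, Hes1 was lower in cones (-2.06) and more so in progenitors (-3.28). The Hes2 values rest on a progenitor change (6.39, SE 1.79) with no UMI in Bax null. Without clusters held by 1 group, Hes5 in ganglion cells of Bax het Atoh7 null turned to 2.08. Among differences by Dll1, in percentage points, leaving out a library gave -0.33 to 0.056 for Notch3, -0.21 to 0.61 for Dll4 and -0.083 to 0.56 for Jag1 in neurogenic cells and -0.44 to 0.37 for Notch3 in progenitors. Dll4 in neurogenic cells was -0.42 within clusters, Jag1 there -0.022 without the cells with the most UMIs, Notch3 in progenitors -2.51 at 2000 UMIs and -0.60 without those cells, and Dll4 in progenitors 0.049 at 2000 UMIs. The cause of the turns outside the within-library difference was not tested.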
